A study of Oncorhynchus mykiss with 70 samples.

Results

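The genes acvr2aa1, acvr2aa2, acvr2ab1 and acvr2ab2 are the 4 copies of the activin type II receptor acvr2a carried by rainbow trout (Oncorhynchus mykiss). They were taken as the 4 members by name from the count table, out of 49 pathway genes, and followed over all 70 samples and 23 tissues. The copies form 2 pairs, aa and ab, and the final digit of each name marks the copy within its pair. The samples were total RNA from adult fish of 2 to 3 years from clonal lines named Swanson and Oregon State University, which were housed in recirculating water systems and received no treatment. Every tissue came from males except Ovaries, which came from females. A tissue had 3 samples, except Caudal Skeletal Muscle with 2 and the Adductor and Pelvic Fin Skeletal Muscles with 4 each. The tissues titled muscle numbered 7, with 22 samples, and the other 16 tissues had 48 samples; Heart, Bulbus Arteriosus and Tongue, which hold muscle but are not titled so, were counted among the others. The design text calls the samples of a tissue biological replicates; the sample labels do not say which samples came from 1 fish, so p-values measure the spread between these samples. No marker gene of a tissue or cell type was among the probes, so the tissue labels were not checked against markers.

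A type II receptor is a transmembrane serine/threonine kinase that binds activins, myostatin and related ligands of the TGF-β superfamily and then phosphorylates a type I receptor, which passes the signal to the receptor-regulated Smads. In mammals, ACVR2A and its relative ACVR2B bind myostatin and limit skeletal muscle mass, and ACVR2A in the pituitary takes part in the control of follicle-stimulating hormone. Salmonid fish underwent a whole genome duplication after the one shared by all teleosts, and many genes are therefore kept as pairs of close copies. NanoString probes count RNA molecules directly with colour-coded barcodes, with no amplification step. Each copy has its own probe here, and whether a probe reads that copy alone was not tested.

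The authors' gene list places acvr2aa1 (LOC110520186) on chromosome 3 and acvr2aa2 (LOC110501883) on chromosome 22. It places acvr2ab1 (LOC110495930) on chromosome 18 and acvr2ab2 (LOC110527542) on chromosome 7. In RefSeq's annotation of the assembly USDA_OmykA, gtdc1, zeb2a and kif5c lie within 3 gene positions of acvr2aa1, and lrp1ba and kynu within 3 of acvr2ab1. The copies lie among other genes of the same pathway. On both chromosomes of the ab pair the type I receptor copy acvr1ab lies 168 gene positions away, and an inhbbb copy, which encodes an activin subunit, lies 40 positions from acvr2ab1 and 43 from acvr2ab2. Chromosomes 3 and 22 of the aa pair each hold a copy of the type I receptors acvr1aa and acvr1ca, of the activin subunit gene inhbba and of the myostatin gene mstna.

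The 4 probe targets are shown because every share described here rests on a probe reading 1 copy and not its partner. Each target is 100 bases of the transcript. A 30-base window of each is printed 5′ to 3′ as in the authors' probe list, and the capitals mark the longest run that the target shares with the target of the other copy of its pair.
acvr2aa1 (bases 1 to 30 of the target): ggaAGAAGGaatgagaattatatcgactgg
acvr2aa2 (bases 1 to 30): ctccctaagcAGAAGGtcaggactctttcc
acvr2ab1 (bases 1 to 30): acCCTTCtcgctctcacagttcctagctac
acvr2ab2 (bases 63 to 92): gtacaacagactCCTTCaaaggagcaacac
The aa targets share at most 6 bases in a row and were 48.7% identical when aligned, and the ab targets share at most 5 and were 50.9% identical. Where the targets lie within their transcripts was not examined, and no target was set against the transcript of its partner. These values therefore cannot show that a probe reads only 1 copy. The targets of acvr2ba1 and acvr2ba2, copies of the related receptor acvr2b, shared at most 6 bases and were 46.8% identical. By the authors' list the acvr2ba1 probe nevertheless matches the gene of acvr2ba2 as well. Their GC contents were 41% for acvr2aa1, 49% for acvr2aa2, 52% for acvr2ab1 and 47% for acvr2ab2. Probes can differ in efficiency, so the level of one copy cannot be set against the level of another, and only a change of a copy's share between tissues was tested.

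Total counts per sample ranged from 52194 to 269554, and the mean of the 8 negative controls from 2.5 to 11.5. Counts were scaled to the geometric mean of the reference genes actb, ef1a and tbp, relative to its average over samples, and the result is called a scaled count. The reference genes gave a median scale factor of 0.349 in muscle and 1.72 in the other tissues, so a muscle sample had fewer counts behind the same scaled count. A copy was taken as detected in a sample when its raw count passed the mean plus 2 SD of that sample's negative controls. By this measure acvr2aa1 was detected in 70 of 70 samples, acvr2aa2 in 68, acvr2ab2 in 67 and acvr2ab1 in 63. The raw counts ranged from 21 to 836 for acvr2aa1 (median 199), from 8 to 579 for acvr2aa2 (median 108.5), from 7 to 270 for acvr2ab1 (median 54) and from 7 to 356 for acvr2ab2 (median 65.5). Adductor Skeletal Muscle 1 fell below the threshold for 3 copies and Red Skeletal Muscle 3 and Pelvic Fin 3 for 2 each. Of the ab pair, acvr2ab1 was also below it in Heart 1, Heart 3, Liver 1 and Liver 2, and acvr2ab2 in Red Skeletal Muscle 2. The samples fell into 3 sets by the constant behind the authors' normalized table, with 44, 12 and 13 samples; Adductor Skeletal Muscle 1 was in none of them. The largest set holds 5 muscles and 10 other tissues, the 12-sample set holds Retina, Cardiac Stomach, Distal Intestine and Pelvic Fin, and the 13-sample set holds Caudal and Red Skeletal Muscle, Heart, Gill and 1 sample each of the Adductor and Pelvic Fin Skeletal Muscles, placed there by the closest match of that constant.

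All 4 copies varied among the 23 tissues, each by 10.9 to 17.2 times between the highest and the lowest tissue mean. The quasi-likelihood F of edgeR was 10.9 for acvr2aa1 (adjusted p = 3.02e-12), 6.99 for acvr2aa2 (adjusted p = 4.67e-09), 6.85 for acvr2ab1 (adjusted p = 6.34e-09) and 9.18 for acvr2ab2 (adjusted p = 5.94e-11). Variation among tissues was called for 49 of 49 genes, or 100% of those tested, so the call itself sets no copy apart. In whole tissue, fewer cells that express a gene and less RNA per cell cannot be told apart.

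The level of acvr2aa1 was highest in Caudal Skeletal Muscle and in Retina and lowest in Testes and Head Kidney. In descending order of the mean scaled count (± SD), it was 583 ± 176 in Caudal Skeletal Muscle, 436 ± 148 in Retina, 389 ± 28.1 in Epaxial Skeletal Muscle, 374 ± 58.9 in Bulbus Arteriosus and 370.4 ± 46.2 in Hypaxial Skeletal Muscle. There followed 337 ± 86.6 in Red Skeletal Muscle, 335 ± 72.97 in Adductor Skeletal Muscle, 311 ± 15.2 in Brain, 286 ± 165 in Extraocular Muscle, 268 ± 54.5 in Pelvic Fin Skeletal Muscle and 225 ± 48.5 in Distal Intestine. It was 224 ± 52.4 in Gill, 189 ± 34.5 in Heart, 159 ± 64.8 in Visceral Fat, 150.5 ± 22.4 in Cardiac Stomach, 136 ± 9.33 in Spleen and 127 ± 55.8 in Pelvic Fin. These tissues form a gradual slope with no gap between neighbours. The lowest levels were 123 ± 13.7 in Pyloric Caeca, 115 ± 30.8 in Tongue, 114 ± 16.6 in Liver, 106 ± 67.98 in Ovaries, 54.2 ± 5.05 in Testes and 53.4 ± 21.5 in Head Kidney. The highest mean was 10.9 times the lowest, and each of the 22 neighbours in this order overlapped the next in its samples. In Ovaries the samples stood at 137, 154 and 28.5, so the mean there is pulled down by sample 3. The scaled counts of Testes, 55.7, 48.6 and 58.4, lay below every sample of the other tissues apart from Ovaries and Head Kidney, and those of Head Kidney were 78.2, 41.1 and 40.9.

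The partner copy acvr2aa2 was highest in Extraocular Muscle, Caudal Skeletal Muscle, Brain and Red Skeletal Muscle. Its mean scaled counts were 326 ± 239 in Extraocular Muscle, 260.5 ± 82.9 in Caudal Skeletal Muscle, 247 ± 60.8 in Brain and 242 ± 93.9 in Red Skeletal Muscle, followed by 191 ± 75.6 in Epaxial Skeletal Muscle, 185 ± 108 in Hypaxial Skeletal Muscle, 173 ± 74.5 in Pelvic Fin Skeletal Muscle and 148 ± 55.3 in Adductor Skeletal Muscle. Next came 134 ± 46.3 in Heart, 126 ± 28.4 in Distal Intestine, 121 ± 27.99 in Liver, 85.9 ± 46.8 in Pelvic Fin, 84.4 ± 5.55 in Retina, 84.1 ± 1.39 in Bulbus Arteriosus and 79.2 ± 19.3 in Testes. The order thus starts with the 7 muscles and Brain. The remaining means were 76.1 ± 9.004 in Visceral Fat, 75.4 ± 23.4 in Pyloric Caeca, 74.2 ± 14.2 in Gill, 73.8 ± 2.52 in Cardiac Stomach, 71.5 ± 12.7 in Ovaries, 58.8 ± 9.87 in Tongue, 50.8 ± 13.03 in Spleen and 27.95 ± 5.93 in Head Kidney. Spleen and Head Kidney were the only neighbours in this order whose samples did not overlap, and the highest mean was 11.7 times the lowest. The 3 samples of Extraocular Muscle read 422, 53.3 and 502, so the top place rests on samples 1 and 3, whereas Brain stood at 317, 215 and 208.

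Of acvr2ab1, the 7 highest tissue means were the 7 muscles. They were 230.3 ± 73.2 in Caudal Skeletal Muscle, 188 ± 162 in Red Skeletal Muscle, 186 ± 109.8 in Epaxial Skeletal Muscle and 162 ± 66.9 in Hypaxial Skeletal Muscle, then 143 ± 83.6 in Pelvic Fin Skeletal Muscle, 119.9 ± 31.8 in Adductor Skeletal Muscle and 80.9 ± 67.5 in Extraocular Muscle. The other tissues began with 70.9 ± 2.78 in Brain, 64.4 ± 11.9 in Bulbus Arteriosus, 61.7 ± 15.2 in Gill, 49.6 ± 26.6 in Pyloric Caeca, 47.02 ± 14.5 in Visceral Fat and 46.1 ± 13.1 in Testes. No sample of Brain reached any sample of Caudal, Epaxial, Hypaxial or Adductor Skeletal Muscle. The lowest of these muscle samples, Adductor Skeletal Muscle 1 at 79.5, rested on 8 counts, below its negative control threshold of 21.6. Lower means were 36.03 ± 7.38 in Retina, 34.98 ± 15.7 in Cardiac Stomach, 32.2 ± 5.83 in Tongue, 31.6 ± 3.203 in Ovaries and 31.4 ± 5.66 in Heart. The lowest were 28.5 ± 24.7 in Liver, 26.8 ± 10.1 in Distal Intestine, 26.6 ± 17.5 in Spleen, 17.4 ± 11.3 in Head Kidney and 16.5 ± 10.5 in Pelvic Fin. The raw counts of acvr2ab1 were small at both ends of this order. In Pelvic Fin they were 26, 40 and 11, the last below the negative control threshold. In Red Skeletal Muscle, second in the order, they were 32, 34 and 9, the last again below it. The highest mean was 13.9 times the lowest, and all 22 neighbours overlapped.

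The profile of acvr2ab2 also began with 6 muscles, but Brain, Heart and Testes followed closely. Its mean scaled counts were 279 ± 175 in Caudal Skeletal Muscle, 197 ± 49.4 in Epaxial Skeletal Muscle, 162 ± 85.7 in Hypaxial Skeletal Muscle and 150.2 ± 91.04 in Red Skeletal Muscle, then 147 ± 47.3 in Pelvic Fin Skeletal Muscle and 127 ± 52.4 in Adductor Skeletal Muscle. After these came 124 ± 22.1 in Brain, 109 ± 19.8 in Heart, 99.97 ± 79.4 in Extraocular Muscle, 99.4 ± 6.203 in Testes, 93.8 ± 23.8 in Gill and 89.3 ± 9.76 in Bulbus Arteriosus. The samples of Testes were nearly equal at 99.97, 92.9 and 105. In the rest of the order the means were 67.6 ± 13.4 in Visceral Fat, 47.4 ± 28.4 in Liver, 38.4 ± 19.1 in Cardiac Stomach, 35.8 ± 13.4 in Tongue and 35.5 ± 7.41 in Ovaries. They ended with 33.7 ± 9.79 in Retina, 33.6 ± 16.2 in Pyloric Caeca, 30.7 ± 12.2 in Distal Intestine, 23.6 ± 13.7 in Pelvic Fin, 22.1 ± 5.68 in Spleen and 16.2 ± 1.81 in Head Kidney. The highest mean was 17.2 times the lowest, the widest range of the 4 copies, and all 22 neighbours overlapped.

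**Figure D1:**
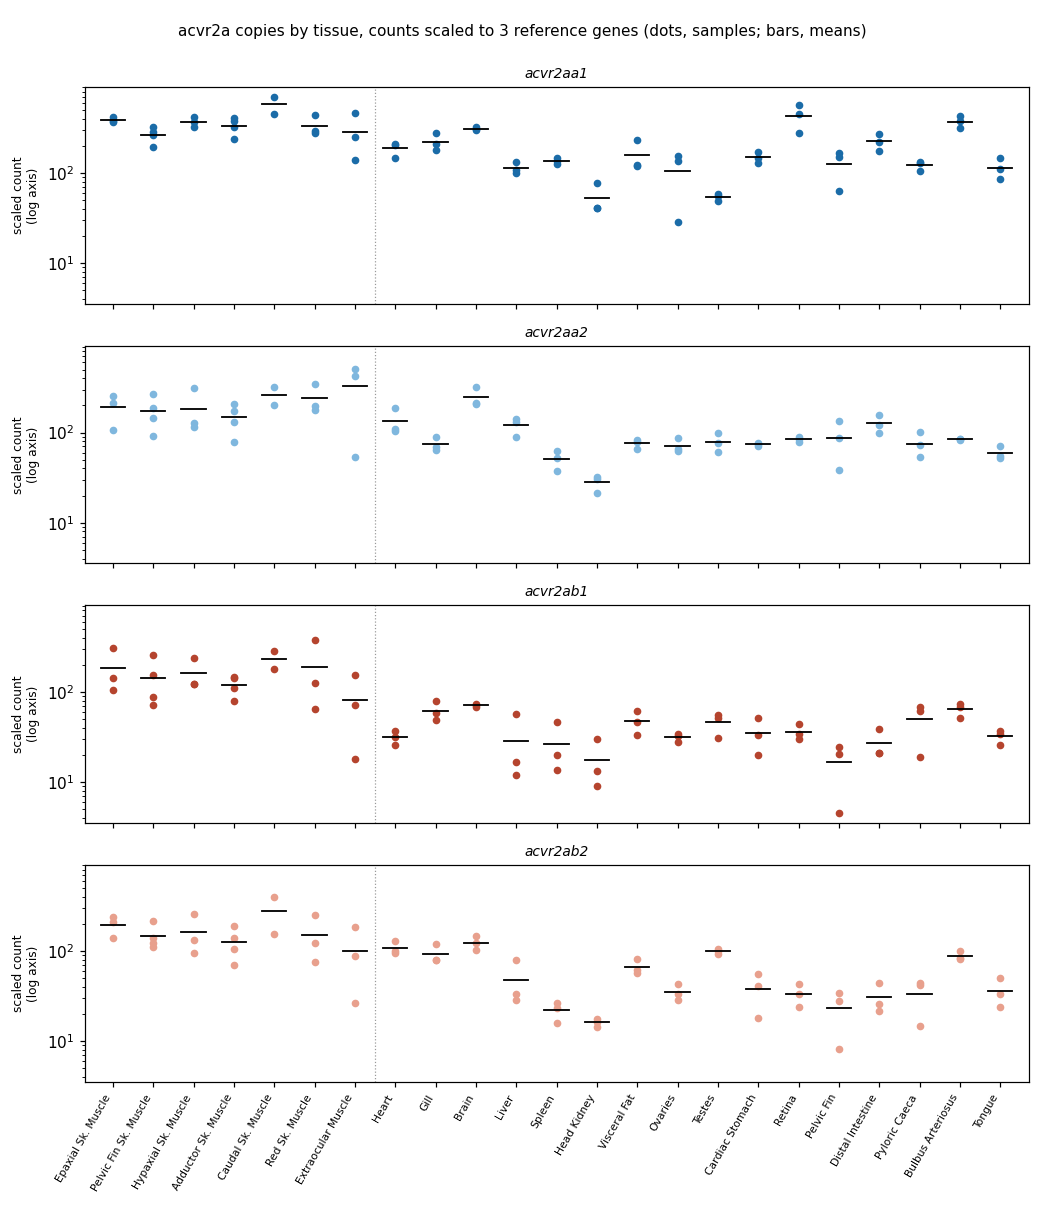
Scaled counts (log axis) of the 4 acvr2a copies in each of 23 tissues, with a dot for each sample and a bar for each tissue mean; the dotted line separates the 7 muscles from the other 16 tissues. All muscle means of acvr2ab1 lie above those of the other tissues, whereas acvr2aa1 is also high in Retina and Bulbus Arteriosus and low in Testes.

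Each tissue was also set against the mean of the other 22. A copy was called enriched in a tissue when the adjusted p was under 0.05, the log2 difference reached 1 and its counts there averaged 20 or more, and depleted when that difference was -1 or below. Of the 92 combinations of copy and tissue, 18 were enriched and 12 depleted. Over all genes 16.3% of 1127 combinations were enriched and 16.5% depleted, so the copies' shares lay near this background. Of the 18 enrichments, 16 were in muscles. How many of the enrichments of all genes were in muscles was not counted. Under the same scaling 53.1% of the 49 genes were called higher in muscle than in the other tissues and 0% lower.

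Enrichment depended on what the counts were scaled to. When they were scaled to the geometric mean of the pathway genes themselves, 8 combinations of the copies were enriched and 2 depleted, against 12.9% and 8.16% of all combinations, and none of the 8 was in a muscle. Under this scaling, too, the enrichments of all genes in muscles were not counted. In the comparison of muscle with the other tissues it gave 8.16% of genes called higher and 18.4% lower. Only 2 calls were made under both scalings, and both concerned acvr2aa1. In Retina, at 571, 277 and 458 scaled counts, its log2 difference was 1.18 ± 0.234 (SE, adjusted p = 5.43e-05) against the reference genes and 1.46 ± 0.251 (SE, adjusted p = 5e-06) against the pathway genes. All 3 Retina samples lay above those of Heart and of every tissue below Heart in the order. In Testes the difference was -1.96 ± 0.323 (SE, adjusted p = 2.29e-06) against the reference genes and -1.38 ± 0.3399 (SE, adjusted p = 0.00133) against the pathway genes. Without Retina replicate 1 the first Retina value was 0.94, under the log2 threshold of 1.

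The other enrichments of acvr2aa1 were in Caudal and Epaxial Skeletal Muscle. In Caudal Skeletal Muscle, with scaled counts of 708 and 458, the log2 difference was 1.63 ± 0.277 (SE, adjusted p = 3.99e-06) against the reference genes, but -0.15 against the pathway genes. In Epaxial Skeletal Muscle it was 1.01 ± 0.244 (SE, adjusted p = 0.000741) with scaled counts of 369, 421 and 376, and -0.33 against the pathway genes. Head Kidney was depleted at -1.98 ± 0.323 (SE, adjusted p = 1.75e-06), and stood at -0.39 against the pathway genes. The muscle calls thus turned in sign with the scaling, and the Head Kidney call was lost. Leaving out Epaxial Skeletal Muscle replicate 2 brought its difference to 0.95.

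For acvr2aa2 the enriched tissues were Extraocular Muscle, Caudal Skeletal Muscle, Brain and Red Skeletal Muscle, and the depleted ones Head Kidney and Spleen. The log2 difference was 1.64 ± 0.273 (SE, adjusted p = 2.66e-06) in Extraocular Muscle and 1.22 ± 0.285 (SE, adjusted p = 0.000518) in Brain. These 2 tissues kept a positive difference against the pathway genes, of 0.76 and 0.74, below the threshold of 1. Caudal Skeletal Muscle, at 1.31 ± 0.3604 (SE, adjusted p = 0.00288), and Red Skeletal Muscle, at 1.18 ± 0.313 (SE, adjusted p = 0.00205), turned negative there, at -0.42 and -0.13. Single samples carried some of these calls: the value was 0.94 (adjusted p = 0.163) without Caudal Skeletal Muscle replicate 1, 0.82 (adjusted p = 0.0844) without Red Skeletal Muscle replicate 2 and 1.00 without Brain replicate 1. Head Kidney, with scaled counts of 32.2, 30.5 and 21.2, was depleted at -2.06 ± 0.397 (SE, adjusted p = 3.51e-05). Spleen was depleted at -1.16 ± 0.365 (SE, adjusted p = 0.00876), and at -0.98 (adjusted p = 0.0654) without Spleen replicate 2.

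Enrichment of acvr2ab1 was called in 6 of the 7 muscles. Its log2 difference was 2.15 ± 0.439 (SE, adjusted p = 8.13e-05) in Caudal Skeletal Muscle, with scaled counts of 282 and 179. In Epaxial Skeletal Muscle it was 1.81 ± 0.375 (SE, adjusted p = 0.000106), with 143, 310.4 and 104. Samples within these muscles differed by up to several times, but all lay above the samples of Brain. The differences were 1.79 in Red, 1.61 in Hypaxial, 1.42 in Pelvic Fin and 1.19 in Adductor Skeletal Muscle, with adjusted p-values from 3.49e-04 to 0.00530. Against the pathway genes the 6 muscle values were smaller, from 0.14 to 0.47, and none was called. The value in Red Skeletal Muscle, whose samples stood at 65.1, 371 and 126, was 0.78 (adjusted p = 0.236) without replicate 2, and that in Pelvic Fin Skeletal Muscle was 0.97 without replicate 4. Pelvic Fin, at -1.85 ± 0.521 (SE, adjusted p = 0.00361), and Head Kidney, at -1.74 ± 0.506 (SE, adjusted p = 0.00466), were depleted.

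For acvr2ab2, 5 muscles were enriched and 6 other tissues depleted. The log2 difference was 2.14 ± 0.362 (SE, adjusted p = 3.43e-06) in Caudal Skeletal Muscle, with scaled counts of 402 and 155. In Epaxial Skeletal Muscle it was 1.60 ± 0.318 (SE, adjusted p = 5.92e-05), with 238, 211 and 142. Hypaxial Skeletal Muscle stood at 1.31, Pelvic Fin Skeletal Muscle at 1.17 and Red Skeletal Muscle at 1.16. These values came to between -0.16 and 0.39 against the pathway genes. The call in Caudal Skeletal Muscle was lost without replicate 1 (1.29, adjusted p = 0.0682), that in Hypaxial Skeletal Muscle without replicate 1 (0.81, adjusted p = 0.0994), that in Red Skeletal Muscle without replicate 3 (0.64, adjusted p = 0.224) or through the count minimum without replicate 1 (1.31, adjusted p = 0.0164), and that in Pelvic Fin Skeletal Muscle without replicate 4 (0.92). The depleted tissues were Head Kidney at -2.15, Spleen at -1.69, Pelvic Fin at -1.60, Distal Intestine at -1.19, Pyloric Caeca at -1.05 and Retina at -1.05. Of these, Distal Intestine lost the call without replicate 2 (-1.08, adjusted p = 0.0691) or 3 (-0.99, adjusted p = 0.0903), Pyloric Caeca without replicate 3 (-0.70, adjusted p = 0.205), and Retina without replicate 1 (-1.05, adjusted p = 0.0794) or 3 (-0.86, adjusted p = 0.145).

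Scaled to the pathway genes, the other 7 enrichments beside acvr2aa1 in Retina were ones not called against the reference genes. Gill was enriched for acvr2aa1 (1.16), acvr2ab1 (1.23) and acvr2ab2 (1.49). Distal Intestine was enriched for acvr2aa1 (1.29) and acvr2aa2 (1.35), and Pyloric Caeca for acvr2ab1 (1.23). In Testes the copies stood apart in direction, with acvr2ab2 enriched at 1.17 ± 0.296 (SE, adjusted p = 0.0017) and acvr2aa1 depleted. Ovaries were depleted for acvr2aa1 at -1.05 ± 0.327 (SE, adjusted p = 0.0117). Against the reference genes the same combinations stood between -0.16 and 0.58, apart from acvr2aa1 at -1.96 in Testes and -0.94 in Ovaries.

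**Figure D2:**
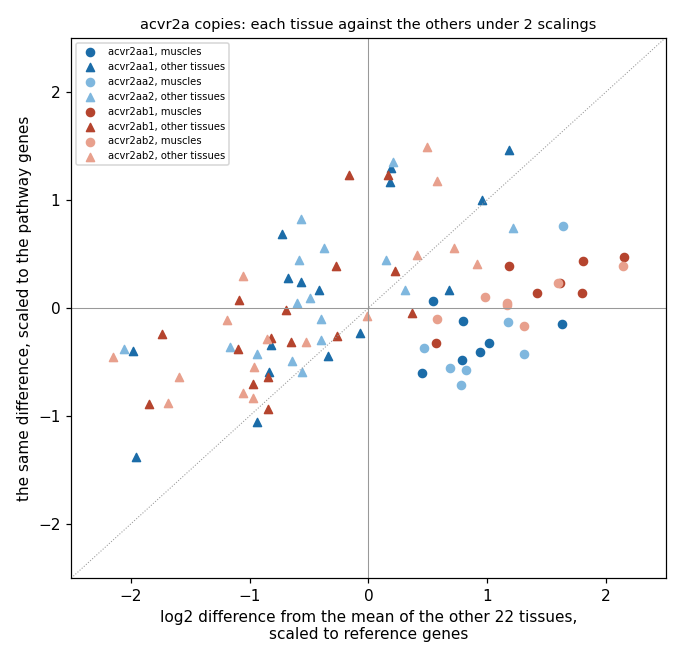
The log2 difference of each copy in each tissue from the mean of the other 22 tissues, scaled to the reference genes on the horizontal axis and to the pathway genes on the vertical axis; circles are muscles and triangles other tissues. Muscles lie below the dotted line of equal values, and the triangle of acvr2aa1 in Retina (1.18 and 1.46) is the only point past 1 on both axes.

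Relative to the reference genes, all 4 copies were higher in the 7 muscles than in the 16 other tissues, and the direction of acvr2aa1, acvr2aa2 and acvr2ab2 turned when the counts were scaled to the pathway genes. The tissue was the unit of this comparison, with the counts of its samples summed. The mean scaled count of acvr2aa1 was 367 ± 104 (SD, n = 7 tissues) in muscle and 181 ± 109 (n = 16) elsewhere, a difference of 0.97 ± 0.337 on the log2 scale (SE, edgeR adjusted p = 0.0157). For acvr2aa2 it was 218 ± 61.6 and 91.8 ± 49.3, a difference of 1.10 ± 0.324 (adjusted p = 0.00537). The ab copies differed more: acvr2ab1 stood at 158 ± 49.2 and 38.9 ± 16.3, a difference of 1.86 ± 0.306 (adjusted p = 1.44e-05). For acvr2ab2 the means were 166 ± 58.0 and 56.2 ± 35.2, a difference of 1.51 ± 0.375 (adjusted p = 0.00121). Each copy had its 7 muscle means above the median of the 16 others, as did most genes of the panel. Even inhab1, with a log2 difference of -2.06, did so. For acvr2ab1 the tissue means of the groups did not overlap, with the lowest muscle at 80.9 and the highest other tissue at 70.9. The same held for mstna1, fsta, smad4aa1 and smad4ba2. Single samples of acvr2ab1 did overlap, since the lowest of Extraocular Muscle stood at 18.2. Muscle RNA was extracted with Tri-Reagent and other tissues partly with commercial kits, per the labels' protocols, so extraction and tissue class cannot be told apart. A higher level in muscle was called for 53.1% of the 49 genes and a lower level for 0%.

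Scaling moved the whole panel in this comparison. The median log2 difference of all 49 genes was 1.10 against the reference genes and -0.37 against the pathway genes, and that of the 4 copies 1.30 and -0.27. Scaled to the pathway genes, no copy was called, at -0.66 for acvr2aa1, -0.46 for acvr2aa2, 0.17 for acvr2ab1 and -0.08 for acvr2ab2, where 8.16% of genes were called higher and 18.4% lower. With ef1a and tbp alone as references, the values were 0.93, 1.11, 1.86 and 1.57 in the same order of copies, all called. The size factors of edgeR (TMM) gave -0.59, -0.34, 0.29 and 0.05. DESeq2, which brings its own test beside its own size factors, gave -0.56, -0.33, 0.27 and 0.02. Neither called any copy. Scaled to the 6 positive controls, which are spiked into the assay and are no RNA of the tissue, the values were -1.18 (adjusted p = 0.0230), -0.74, -0.44 and -0.65, and acvr2aa1 was called lower. The share of all genes called was not counted with ef1a and tbp, TMM, DESeq2 or the positive controls. Calls of the copies under those scalings therefore cannot be told from a shift of the whole panel. Under each of the 6 scalings of this comparison acvr2ab1 had the highest value of the 4 and acvr2aa1 the lowest. A scaling moves all genes of a sample by the same factor, so this order could change little and is no separate result. Within the 44-sample set the differences were 1.06, 1.12, 1.73 and 1.39, with adjusted p-values of 0.0613, 0.0582, 0.00410 and 0.0249. Within the 13-sample set, with 4 muscles and 2 other tissues, they were 0.79, 0.60, 1.44 and 0.58 and none was called; the 12-sample set holds no muscle.

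**Figure D3:**
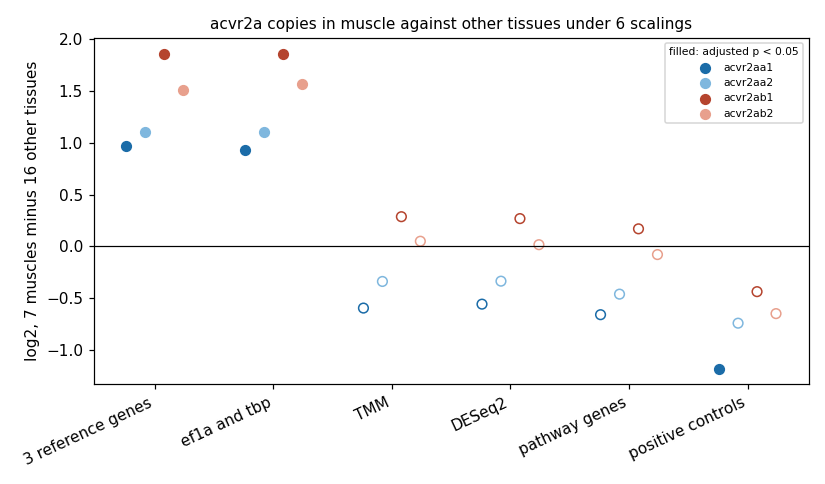
The log2 difference between 7 muscles and 16 other tissues for each copy (vertical axis) under 6 scalings of the counts; filled points have an adjusted p under 0.05. With the reference genes all copies lie between 0.97 and 1.86, with TMM, DESeq2 and the pathway genes between -0.66 and 0.29, and with the positive controls between -1.18 and -0.44.

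The 3 copies of the related type II receptor acvr2b had log2 differences of 0.78 for acvr2ba1, 0.79 for acvr2ba2 and 0.49 for acvr2bb, and none was called; against the pathway genes acvr2bb was called lower, at -1.02 (edgeR adjusted p = 0.0214). Of the type I receptors, which act with the type II receptors, 5 of 10 were called higher in muscle against the reference genes. Of the receptor-regulated and common Smads, which carry the signal to the nucleus, 6 of 10 were higher, and of the 17 ligand genes 8; the median log2 differences were 1.12, 1.14 and 0.78, beside 1.10 for all genes. The inhibitory Smads had 0 of 2, the decoy receptors 2 of 2, and follistatin, which binds activin outside the cell, was also higher. Against the reference genes no gene of any list was lower. Against the pathway genes, 0 of 10 type I receptors were higher and 2 lower, 1 of 10 of those Smads was higher and 3 lower, 2 of 17 ligands were higher and 2 lower, and 1 of 2 inhibitory Smads was lower.

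Among the 7 muscles no copy was called as varying relative to the reference genes. By contrast, acvr2aa2 was called with the pathway genes, TMM, the positive controls and DESeq2. The F was 1.74 for acvr2aa1 (edgeR adjusted p = 0.269), 1.61 for acvr2aa2 (adjusted p = 0.294), 1.16 for acvr2ab1 (adjusted p = 0.443) and 1.52 for acvr2ab2 (adjusted p = 0.320). Over all genes 20.4% were called, and 28.6% at an unadjusted p under 0.05, where 0 of the 4 copies passed with unadjusted p-values from 0.128 to 0.343. The result for acvr2aa2 turned on Extraocular Muscle 2, whose scaled count of 53.3 lay below the 422 and 502.1 of the other 2 samples of that muscle. Without it F was 3.78 (adjusted p = 0.0232). That sample was also the lowest of its muscle for acvr2aa1 (139), acvr2ab1 (18.2) and acvr2ab2 (26.6). Its raw counts over all pathway genes were 2998, beside 12946 and 6304 in samples 1 and 3. Under the other scalings, with all samples, the F of acvr2aa2 was 4.36 for the pathway genes (adjusted p = 0.00472), where 22.4% of genes were called. It was 4.19 for TMM (adjusted p = 0.00675) and 4.53 for the positive controls (adjusted p = 0.00508). DESeq2, which changes the test as well as the scaling, gave a likelihood ratio statistic per degree of freedom of 6.23 (adjusted p = 1.22e-05). The share of all genes called was not counted for TMM, the positive controls, DESeq2 or limma.

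Within the aa pair, the share of acvr2aa1 in the counts of both copies changed among tissues. It was lowest in Testes and Liver and highest in Retina and Bulbus Arteriosus. The F of copy by tissue in edgeR was 5.54 (adjusted p = 3.05e-07), in a test where 81% of 21 duplicate pairs were called. Setting 1 copy against the other in the same sample cancels the scaling, so these values do not depend on the reference genes. Of the 483 combinations of pair and tissue, 12.8% were called, and of the 23 of the aa pair 4 were.

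The tissue means of the acvr2aa1 share were 82.9 ± 4.46% in Retina, 81.4 ± 2.32% in Bulbus Arteriosus, 74.9 ± 2.31% in Gill, 73.1 ± 4.66% in Spleen and 70.1 ± 4.42% in Adductor Skeletal Muscle. They continued with 69.2 ± 0.348% in Caudal Skeletal Muscle, 68.1 ± 12.1% in Hypaxial Skeletal Muscle, 67.9 ± 8.55% in Epaxial Skeletal Muscle, 66.9 ± 2.71% in Cardiac Stomach, 66.3 ± 6.799% in Visceral Fat and 65.8 ± 2.79% in Tongue. Further down were 64.7 ± 6.78% in Head Kidney, 64.1 ± 0.286% in Distal Intestine, 62.5 ± 5.05% in Pyloric Caeca, 61.8 ± 9.18% in Pelvic Fin Skeletal Muscle, 60.5 ± 3.99% in Pelvic Fin and 59.1 ± 7.101% in Heart. Muscles and other tissues are mixed through this order. The lowest were 58.9 ± 2.92% in Red Skeletal Muscle, 56.2 ± 4.63% in Brain, 54.3 ± 20.1% in Ovaries, 52.6 ± 17.9% in Extraocular Muscle, 48.8 ± 5.23% in Liver and 41.1 ± 3.73% in Testes. The share was above 50% in 21 of 23 tissues, though the value of 50% itself depends on the efficiency of the probes. Neighbours overlapped in their samples except Bulbus Arteriosus and Gill.

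Testes had the lowest share, with 42.1%, 44.2% and 36.97% acvr2aa1 (93 of 221, 111 of 251 and 156 of 422 counts). The log2 ratio of acvr2aa1 to acvr2aa2 there was -1.46 ± 0.280 from the mean of the other tissues (SE, adjusted p = 6.59e-05). All 3 samples lay below every sample of the other tissues apart from Ovaries, Extraocular Muscle and Liver, each of which had a sample as low. In Liver the shares were 43.01%, 53.1% and 50.4%, from 83 of 193, 85 of 160 and 212 of 421 counts, a difference of -0.98 ± 0.281 (adjusted p = 0.00983). That call was lost without Liver replicate 1 (-0.82, adjusted p = 0.109) and after subtraction of the negative controls (-1.06, adjusted p = 0.0868).

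Retina had shares of 86.4%, 77.9% and 84.4% (732 of 847, 465 of 597 and 708 of 839 counts), with a log2 ratio 1.498 ± 0.277 above the mean of the other tissues (adjusted p = 3.76e-05). Bulbus Arteriosus, the elastic outflow chamber of the fish heart, had 81.4%, 79.1% and 83.8% (446 of 548, 144 of 182 and 320 of 382 counts), a difference of 1.33 ± 0.285 (adjusted p = 4.01e-04). The samples of both tissues lay above those of Gill, the next in the order, at 76.7%, 72.3% and 75.8%. Those of Bulbus Arteriosus also lay above every sample of the tissues further down. Retina 2, at 77.9%, lay below Spleen 2 at 78.4% and Hypaxial Skeletal Muscle 2 at 78.1%. Leaving out each sample of the tissue in turn kept the calls, with the difference between -1.56 and -1.33 in Testes, 1.32 and 1.74 in Retina, and 1.21 and 1.43 in Bulbus Arteriosus. Within the 44-sample set F was 3.70 (adjusted p = 0.00108), and Testes (-1.37, adjusted p = 0.00545) and Bulbus Arteriosus (1.49, adjusted p = 0.00283) were called. Within the 12-sample set F was 26.5 (adjusted p = 4.39e-13) and Retina was called at 1.48 (adjusted p = 1.22e-13). Pelvic Fin at -0.77 and Distal Intestine at -0.48 were called lower there. The spread used by edgeR is drawn in part from the other duplicate pairs, so p-values this small do not measure this pair's samples alone. Within the 13-sample set F was 4.85 (adjusted p = 0.0191).

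Samples of 1 tissue differed widely in the aa share in 2 tissues. In Ovaries the shares were 67.6%, 64.1% and 31.2%, with sample 3 below both others. Extraocular Muscle had 37.5%, 72.4% and 48.04%, with sample 2 above. Neither tissue was called against the others, with adjusted p-values of 0.198 and 0.0603. Among the 7 muscles the aa copy ratio had an F of 2.12 (adjusted p = 0.143; 19% of pairs called), and without Extraocular Muscle replicate 2 an F of 4.28 (adjusted p = 0.00505). Muscle against other tissues differed by -0.08 ± 0.304 (adjusted p = 0.822), where 4.76% of pairs were called, and 19% at an unadjusted p under 0.05.

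Within the ab pair, the share of acvr2ab1 also changed among tissues, but the call was not stable. The F among tissues was 1.89 (adjusted p = 0.0359). It was lost when the negative controls were subtracted (F 1.34, adjusted p = 0.278) and with the 13-sample set as a block (F 1.67, adjusted p = 0.0795). The call was also lost with at least 50 counts of the pair in a sample (F 1.67, adjusted p = 0.0926). It was also lost on leaving out any 1 of 8 samples, namely Heart 1, Heart 2, Heart 3, Brain 1, Testes 1, Testes 3, Pyloric Caeca 1 or Pyloric Caeca 2, with F from 1.53 to 1.80 and adjusted p-values from 0.0514 to 0.115. Within the 3 sets, from the largest to the smallest, the adjusted p-values were 0.151, 0.246 and 0.4931. The block set the 13-sample set against all other samples. Only the Adductor and Pelvic Fin Skeletal Muscles have samples both in and out of that set. The block therefore rests on 1 sample of each, placed there by the closest match of the constant.

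In order, the mean share of acvr2ab1 was 58.8 ± 2.85% in Pyloric Caeca, 52.05 ± 6.17% in Retina, 51.7 ± 12.8% in Spleen, 50.9 ± 4.96% in Hypaxial Skeletal Muscle and 50.3 ± 28.2% in Red Skeletal Muscle. Then came 49.6 ± 4.31% in Adductor Skeletal Muscle, 48.6 ± 12.7% in Head Kidney, 48.5 ± 9.54% in Cardiac Stomach, 48.2 ± 6.77% in Tongue, 47.4 ± 4.83% in Ovaries and 47.4 ± 8.68% in Caudal Skeletal Muscle. The muscles lay in the upper and middle part of the order, mixed with other tissues. Lower values were 47.1 ± 10.9% in Pelvic Fin Skeletal Muscle, 46.8 ± 2.502% in Distal Intestine, 46.5 ± 11.6% in Epaxial Skeletal Muscle, 43.96 ± 17.8% in Extraocular Muscle, 41.7 ± 4.32% in Bulbus Arteriosus and 40.7 ± 8.09% in Visceral Fat. At the end were 39.8 ± 5.85% in Pelvic Fin, 39.7 ± 2.44% in Gill, 36.6 ± 3.203% in Brain, 34.8 ± 6.196% in Liver, 31.3 ± 6.603% in Testes and 22.5 ± 2.32% in Heart. The share was above 50% in 5 of 23 tissues, and all neighbours overlapped in their samples.

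Heart was the only tissue called for the ab pair. Its acvr2ab1 shares were 20.5%, 21.9% and 25%, from 9 of 44, 43 of 196 and 7 of 28 counts, and the log2 ratio of acvr2ab1 to acvr2ab2 was -1.53 ± 0.398 from the mean of the other tissues (adjusted p = 0.00462). The 3 samples were close to each other and lay below all samples of the other tissues, Testes 1 at 23.7% being the exception. The raw counts of acvr2ab1 in Heart were 9, 43 and 7, and 2 of the 3 did not pass the negative controls. The call was lost with the 13-sample set as a block (-1.27, adjusted p = 0.211) and without Heart replicate 2 (-1.51, adjusted p = 0.0558). With at least 50 counts of the pair only sample 2 of Heart remained, and the difference was -1.52. Testes, at 23.7%, 35.8% and 34.5%, had a difference of -0.84 (adjusted p = 0.0867). Pyloric Caeca, at 61.8%, 58.5% and 56.1%, had 0.90 (adjusted p = 0.0668). Red Skeletal Muscle had the widest spread, with 34.8%, 82.9% and 33.3% in counts of 32 of 92, 34 of 41 and 9 of 27.

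No difference of the ab ratio was detected among the muscles or between muscles and other tissues. The mean share lay between 44.0% and 50.9% in the 7 muscles, F was 0.14 (adjusted p = 0.991), and muscle against other tissues differed by 0.22 ± 0.237 on the log2 scale (adjusted p = 0.599). The SD of a muscle's samples had a median of 10.9 percentage points, wider than the range of the muscle means.

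**Figure D4:**
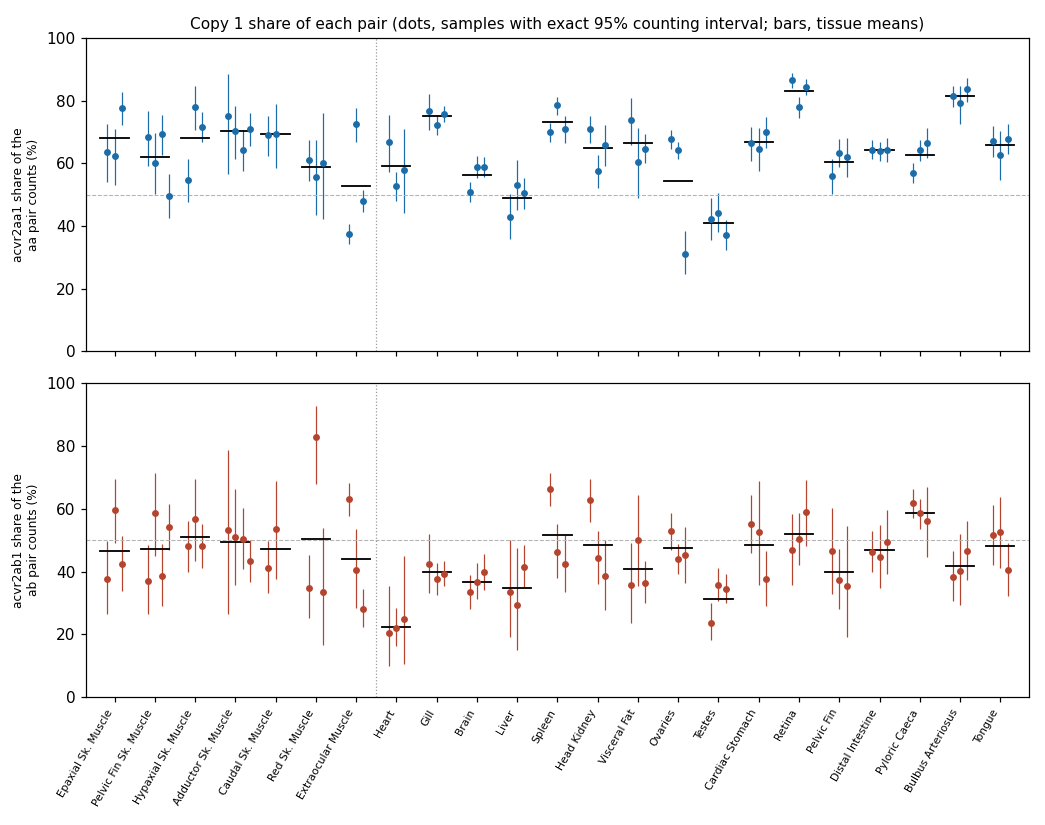
The share of copy 1 in the counts of the aa pair (top) and of the ab pair (bottom), in percent, for each sample with its exact 95% binomial interval, which covers counting error only; bars are tissue means and the dotted line separates muscles from other tissues. Retina (82.9%) and Bulbus Arteriosus (81.4%) are highest and Testes (41.1%) lowest in the aa pair, and Heart (22.5%) is lowest in the ab pair.

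Both pairs together, the aa copies made up 47.7 ± 3.89% of the acvr2a counts in Testes and more than that in the other 22 tissues. The 3 Testes samples did not overlap the next tissue, Epaxial Skeletal Muscle at 61.1 ± 4.95%. At the other end stood Retina at 87.3 ± 6.11%, Distal Intestine at 85.8 ± 4.90% and Pelvic Fin at 85.0 ± 3.90%. Taken singly, acvr2aa1 in Testes made up 19.5% of the acvr2a counts, below every sample of the next tissue by mean. Sample 3 of Ovaries, however, lay within the range of the Testes samples. In Testes acvr2ab2 made up 35.8%, above every sample of the next tissue, Heart at 23.5%. Heart in turn did not overlap the next tissue by mean, Gill at 20.6%. Single samples of lower tissues did reach it: Pelvic Fin Skeletal Muscle 1 and Red Skeletal Muscle 3 lay above all Heart samples. In Retina acvr2aa1 made up 72.5% and acvr2ab2 6.14%, the highest and the lowest tissue means of these copies. The share of acvr2aa2 ran from 13.8% in Bulbus Arteriosus to 39.6% in Liver, and that of acvr2ab1 from 5.97% in Pelvic Fin to 18.5% in Pelvic Fin Skeletal Muscle.

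The aa share of acvr2a was lower in muscle than elsewhere at 65.4 ± 5.84% (SD, n = 7 tissues) against 73.5 ± 9.47% (n = 16). On the log2 scale the ratio of aa to ab counts was 0.91 ± 0.387 in muscle and 1.52 ± 0.701 elsewhere, a difference of -0.62 with 6 of 7 muscles below the median of the other tissues. Extraocular Muscle, at 1.72, was the exception. A two-sided exact permutation test over tissues gave p = 0.0419, and 0.0839 after adjustment over the 2 ratios tested, which did not pass. Leaving out 1 tissue at a time, added after the data were seen, gave differences from -0.75 to -0.53, and the exact permutation test passed without Extraocular Muscle (-0.75, adjusted p = 0.0352) and without Testes (-0.73, adjusted p = 0.0121). Within the 44-sample set the difference was -0.39 (exact permutation p = 0.207), and within the 13-sample set it was -0.14 (p = 0.667), where the smallest p the exact test allows is 0.0667.

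Of the counts of all 7 type II receptor probes, with no correction for the efficiency of a probe, the acvr2a copies made up over 50% in 22 of 23 tissues. The exception was Liver, at 43.7 ± 11.4%, followed by Ovaries at 58.5 ± 24.4% and Visceral Fat at 76.0 ± 4.15%. The Ovaries samples ran from 30.5% to 75.5% and overlapped both neighbours, and Gill was highest at 93.0%. The level of acvr2b rests on few counts: acvr2ba1 passed the negative controls in 46 of 70 samples, acvr2ba2 in 55 and acvr2bb in 38. By the authors' list the probe of acvr2ba1 also matches the gene of acvr2ba2, so RNA of acvr2ba2 can count in both probes. How much this adds to the acvr2b side of the shares and of the ratio was not tested. The log2 ratio of acvr2a to acvr2b differed by 0.15 between muscle and other tissues (two-sided exact permutation p = 0.720, adjusted p = 0.720), with 2.53 ± 0.401 in muscle and 2.38 ± 0.979 elsewhere. Within the 44-sample set the difference was 0.22 (exact permutation p = 0.713) and within the 13-sample set -0.29 (p = 0.733).

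**Figure D5:**
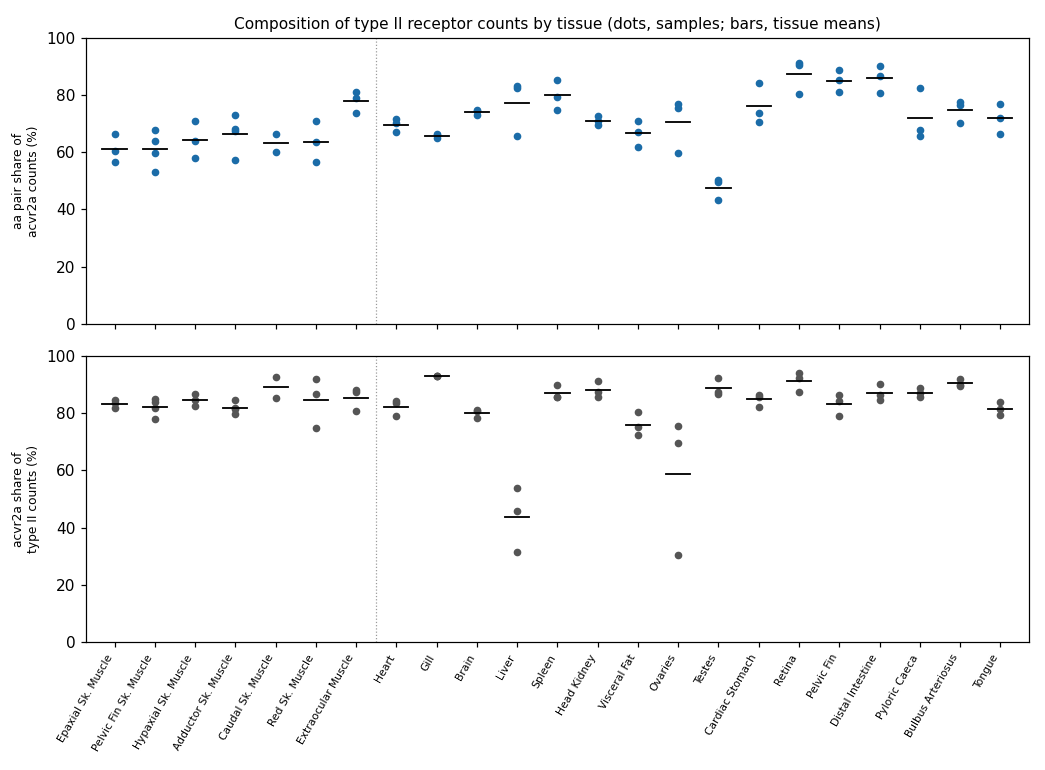
The aa share of the counts of the 4 acvr2a copies (top) and the acvr2a share of the counts of all 7 type II receptor probes (bottom), in percent, by tissue, with a dot for each sample and a bar for each tissue mean. Testes (47.7%) stand below the other tissues in the upper panel, and Liver (43.7%) and Ovaries (58.5%) in the lower one.

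Over the 23 tissue means of log2(scaled count + 10), the ab copies resembled each other more than the aa copies did. Pearson's r was 0.90 between acvr2ab1 and acvr2ab2 and 0.74 between acvr2aa1 and acvr2aa2, and 0.64 and 0.50 when scaled to the pathway genes. Across the pairs r with acvr2ab1 and acvr2ab2 was 0.75 and 0.66 for acvr2aa1, and 0.75 and 0.78 for acvr2aa2. Under the reference scaling likeness thus did not follow the aa pair. Scaled to the pathway genes these values were 0.30 and 0.09 for acvr2aa1, and 0.05 and 0.21 for acvr2aa2. All points share their samples and the scaling, so these are descriptions. The genes outside the 4 copies with the most similar profile to acvr2aa1 were smad7b2 (0.85), an inhibitory Smad, the type I receptor acvr1aa2 (0.78) and inhbbb2 (0.75). Closest to acvr2aa2 were acvr1aa1 (0.80), smad4aa2 (0.78), a common Smad, and acvr1ab1 (0.78). Nearest to acvr2ab1 were the myostatin copy mstna1 (0.86), smad4aa1 (0.85) and acvr1aa1 (0.85). For acvr2ab2 they were smad4aa2 (0.88), smad3a1 (0.83), a receptor-regulated Smad, and inhbbb2 (0.81). Much of the likeness is common to the panel: the median r over the other 45 genes was 0.50 for acvr2aa1, 0.60 for acvr2aa2, 0.63 for acvr2ab1 and 0.57 for acvr2ab2, against 0.06, 0.02, -0.07 and -0.02 when scaled to the pathway genes. Under that scaling the named genes ranged from 0.18 for acvr1aa1 with acvr2aa2 to 0.50 for smad7b2 with acvr2aa1.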

How the data were processed

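Whole-number NanoString counts of 66 probes in 70 samples were used as the authors deposited them, neither normalized nor background-corrected; the software and its settings are not given in the sources used here. A second table deposited by the authors holds a normalized signal that pools a tissue's replicates into 1 value; it was used to find the 3 sets of samples. The authors' lists gave gene identity, chromosome and probe targets, and all 49 gene identifiers matched RefSeq (assembly USDA_OmykA). No per-sample column was left out (0 unused).

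The design assumed normalized values, but the files hold counts, so edgeR 4.0.16 (robust quasi-likelihood) in R 4.3.3 was fitted to all 49 genes and 70 samples with an offset from the geometric mean of 3 reference genes; limma 3.58.1 and DESeq2 1.42.0 were alternatives. Copy ratios were tested as copy by tissue with the sample as a factor, over 21 duplicate pairs. Muscle was compared with the other tissues on tissue sums, 7 against 16. Benjamini-Hochberg adjustment ran over 49 genes, 1127 gene and tissue combinations, 21 pairs or 483 pair and tissue combinations, at a threshold of 0.05, two-sided. The 2 ratios across pairs were tested by exact permutation of 245157 splits of the tissues with scipy 1.17.1, numpy 2.4.6 and pandas 2.3.3 in Python 3.11.15; matplotlib 3.10.9 drew the figures. Intervals of shares are exact binomial at 95% and cover counting error only. Fits were tested on simulated data. Total counts ranged from 52194 to 269554 per sample, and counts of the 4 copies from 7 to 836, so the lowest counts limit the precision. No 2 samples of a tissue agreed within sampling noise (lowest chi-squared per degree of freedom 1.60).

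The members and the gene lists were chosen with earlier results of these data known. Tissues and genes were named by these rules: every called combination of a copy, the highest and lowest tissues, and the 3 genes with the highest r to each copy.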

Additional observations from a re-analysis of the deposited data

How the results depend on the processing

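The level results depended on the scaling, and DESeq2 changed the test as well. Of the combinations of copy and tissue, 18 were enriched; this fell to 8 with pathway scaling, 6 with TMM, 11 with positive controls, 7 with DESeq2 and 5 with limma at a pseudocount of 50. The depleted ones, 12, became 2, 2, 0, 3 and 3 in that order, and 7 after subtraction of the negative controls. In muscle against others, 4 copies were higher, and 0 under each of the pathway, TMM, positive control and DESeq2 scalings, with 1 lower under positive controls. Among muscles 0 copies varied. Under each of those 4 scalings 1 copy did, acvr2aa2, and with limma at a pseudocount of 50 it was another, acvr2ab2. Calls over all genes were counted with the reference and pathway scalings only. The values below changed sign.

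With pathway scaling, acvr2aa1 was at -0.15 in Caudal Skeletal Muscle, -0.33 in Epaxial Skeletal Muscle and -0.66 in the muscle comparison; acvr2aa2 at -0.42 in Caudal, -0.13 in Red and -0.46 in the muscle comparison; acvr2ab2 at -0.16 in Hypaxial, 0.29 in Pyloric Caeca and -0.078 in the muscle comparison. With TMM, acvr2aa1 was at -0.020 in Caudal, -0.27 in Epaxial and -0.59 in the muscle comparison, acvr2aa2 at -0.30 in Caudal, -0.021 in Red and -0.34 in the muscle comparison, and acvr2ab2 at 0.033 in Pyloric Caeca. With DESeq2, acvr2aa1 was at -0.21 in Epaxial and -0.56 in the muscle comparison, acvr2aa2 at -0.22 in Caudal, -0.14 in Red and -0.33 in the muscle comparison, acvr2ab1 at -0.035 in Pelvic Fin Skeletal Muscle, and acvr2ab2 at -0.067 in Hypaxial, -0.13 in Pelvic Fin Skeletal Muscle and 0.29 in Pyloric Caeca. With positive controls, acvr2aa1 was at -0.72 in Caudal, -1.04 in Epaxial and -1.18 in the muscle comparison, and acvr2aa2 at -1.02 in Caudal, -1.01 in Red, 0.70 in Spleen and -0.74 in the muscle comparison. There, acvr2ab1 was at -0.40 in Adductor, -0.17 in Caudal, -0.43 in Epaxial, 0.22 in Head Kidney, -0.16 in Pelvic Fin Skeletal Muscle, -0.83 in Red and -0.44 in the muscle comparison. Likewise, acvr2ab2 was at -0.17 in Caudal, -0.61 in Epaxial, -0.15 in Hypaxial, -0.38 in Pelvic Fin Skeletal Muscle, 0.59 in Pyloric Caeca, -1.01 in Red, 0.11 in Spleen and -0.65 in the muscle comparison. The cause was not tested.

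The copy ratio among tissues was called for 2 pairs, and for 1, aa, after subtraction of the negative controls or with the 13-sample set as a block. The aa to ab ratio passed without the tissue Testes (-0.73) and without Extraocular Muscle (-0.75). Leaving out 1 sample at a time gave 16 to 19 enriched, 11 to 15 depleted, 0 to 1 copies varying among muscles, 1 to 2 pairs among tissues, 0 to 1 among muscles and 4 to 7 pair and tissue calls. Replicate numbers were not used to pair the samples in the main fits. Deviations of same-numbered samples had a mean r of 0.02, the lowest -0.65, and those of different numbers a mean r of -0.008. Of the 68 samples numbered 1 to 3, 33 were closest to their own number, more than an even split over these numbers would give. Whether samples of 1 number came from 1 fish is not settled by these values. With the replicate number as a block, 17 combinations were enriched and 11 depleted, with acvr2ab2 at 0.92 in Pelvic Fin Skeletal Muscle and -0.998 in Pyloric Caeca no longer past the threshold, and 5 pair and tissue calls. Without the 3 samples with the fewest pathway counts, 17 were enriched and 12 depleted.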

Other observations

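The authors' deposited table of normalized values, with 1 value per gene and tissue, orders the tissues of the 4 copies differently at the top. In the authors' deposited table the highest value of acvr2aa1 was 728 in Retina, and Caudal Skeletal Muscle, the highest by scaled counts, stood at 418. For acvr2aa2 the authors' deposited table had Brain highest at 436, and for acvr2ab1 and acvr2ab2 Epaxial Skeletal Muscle, at 299 and 346. Recomputed from the raw counts, the values of the 4 copies in each tissue of the authors' deposited table matched, within 0.2%, the geometric mean of the samples' ratios to the reference genes times a constant; for Adductor Skeletal Muscle this held with 3 of its 4 samples. Of all genes, between 37 (Gill) and 47 matched in a tissue. That constant was 4721 for Epaxial Skeletal Muscle and 1925 for Caudal Skeletal Muscle, so values of tissues with different constants are not on 1 scale. Brain and Extraocular Muscle share the constant 4721, and there the kind of mean differs. For acvr2aa2 the authors' geometric means were 436 in Brain and 404 in Extraocular Muscle. The arithmetic means of the scaled counts were 247 and 326.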
